A study of Mus musculus with 5 samples.

Results

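The cytoplasmic ribosomal protein genes encode the protein part of the ribosome that works in the cytosol. They were taken by symbol, as every mouse gene named Rps or Rpl with a number (optionally with a, x, y or l, or a further digit), together with Rplp0, Rplp1, Rplp2 and Rpsa, and without entries marked as pseudogene copies by "-ps". This gave 84 of the 27998 genes in the table, 52 of the large subunit and 32 of the small subunit. By the GENCODE annotation of GRCm38, 83 of them are protein-coding and 1, Rpl6l, is a processed pseudogene. The ribosomal protein gene Fau, the scaffold protein gene Gnb2l1 (RACK1) and the paralog Rpl36al fall outside the symbol rule and are described separately.

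The cells came from the ocular area of wild-type C57BL/6J mouse embryos with 12, 16, 20, 24 or 26 somites, 1 embryo at each stage. Both optic areas of an embryo were cut out by hand, dissociated with trypsin and prepared with the 10x Genomics Chromium 3′ kit, in which each UMI (unique molecular identifier) counts 1 captured RNA molecule near its 3′ end. The single deposited matrix holds 5 libraries, told apart by a number at the end of each cell barcode, and that number names no stage. The libraries are therefore called libraries 1 to 5 with no order implied, stages were not compared, and no p-value is given. Intervals are exact, at 95%, and take in the error of counting alone.

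The labels give 2000 cells a sample. The matrix held 257637891 UMIs in 8194 barcodes, 1307 to 1996 barcodes a library, with a median of 20713 to 30922 UMIs a barcode in each library. After filters, 8106 cells remained, and 40 barcode sequences occurred in more than 1 library. Clusters were formed without any ribosomal protein gene and named from marker genes: 1926 optic vesicle-like, 1725 other forebrain-like, 1701 cranial neural crest mesenchyme-like, 457 head mesoderm-like, 389 surface ectoderm-like, 388 endothelium-like, 253 erythroid-like and 86 migratory neural crest-like cells. A further 788 cells had little of the nuclear RNA Malat1 and are called nucleus-depleted for that alone, 320 cells with markers of several classes or of none are called mixed. The smallest classes were 35 neuron-like, 26 myeloid-like and 12 megakaryocyte-like cells. The make-up of a class differed between libraries: 821 of the optic vesicle-like cells were in library 5 and 86 in library 1. Clusters followed the libraries too. In each library another cluster held the most optic vesicle-like cells (89.5%, 97.7%, 75.1%, 86.9% and 54.4% of them in libraries 1 to 5). At least 93.8% of the crest mesenchyme-like cells of each library lay in 1 of 3 clusters, shared by libraries 1 and 2, by libraries 3 and 4, and library 5 alone. Endothelium-like and erythroid-like cells each formed 1 cluster with cells of all 5 libraries.

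A ribosome joins a small subunit, which reads the mRNA, to a large subunit, which forms the peptide bond, and each holds 1 copy of nearly every ribosomal protein. The acidic P proteins (Rplp0, Rplp1, Rplp2) form the stalk that recruits elongation factors. Messenger RNAs of ribosomal proteins begin with a C followed by a run of pyrimidines, the 5′ terminal oligopyrimidine (5′TOP) tract, through which mTOR signalling and LARP1 control their translation and stability together. Cells that grow and divide, such as early neuroepithelium, are known for making many ribosomes, whereas red cell precursors come to be filled with haemoglobin mRNA. A few ribosomal proteins have paralogs, such as Rpl39l and Rpl10l of the testis and Rpl3l of striated muscle.

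Short runs of C and T near the start were looked for first, since they are a feature the symbol rule did not use. RefSeq promoter sequences (GRCm38.p6) were given for 63 of the 84 members. TCTTT or CTTTT, on the strand of the gene and within 15 bases of the annotated start, stood in 15 of these 63 members (23.8%) and in 1752 of 27025 genes (6.48%). The 2 motifs can overlap in TCTTTT. A gene with several annotated starts was counted when 1 of them had the letters. Windows of 30 bases are shown for 6 members that the results below turn on and that hold the letters, and for Rpl41 and Rpl5, which do not. Each runs from 15 bases before to 15 bases from the start, 5′ to 3′ on the gene's strand, with the letters in capitals.
Rpl35, chr2:39005117-39005146, minus strand: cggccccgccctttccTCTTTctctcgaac
Rpl38, chr11:114668565-114668594, plus strand: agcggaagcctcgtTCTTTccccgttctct
Rpl7a, chr2:26910792-26910821, plus strand: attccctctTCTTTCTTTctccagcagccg
Rps26, chr10:128626492-128626521, minus strand: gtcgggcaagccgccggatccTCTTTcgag
Rpl28, chr7:4792950-4792979, plus strand: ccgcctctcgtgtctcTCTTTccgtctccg
Rpl4, chr9:64173372-64173401, plus strand: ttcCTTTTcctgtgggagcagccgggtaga
Rpl41, chr10:128549154-128549183, minus strand: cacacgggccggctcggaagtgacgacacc
Rpl5, chr5:107900513-107900542, plus strand: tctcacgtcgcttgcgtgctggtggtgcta
The match describes these letters near annotated starts only, and a member without them may start at another base. It is not a count of 5′TOP mRNAs. The window takes in 15 bases before the start, where the letters of Rpl4 lie, and other runs of pyrimidines were not searched.

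Summed over all kept cells, the 84 members made up 31.0% of UMIs (78745184 of 254168062). A typical cell stood close to that value, with a median of 30.6% and quartiles of 28.1% and 32.9%. The 10 highest members together gave 21.5% of the member UMIs, and 79 members had a UMI in at least 99% of cells. The 32 small subunit members contributed 44.2% of the member UMIs.

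CPM (UMIs of a gene per 1000000 UMIs) counts molecules and was not divided by gene length, because 3′ UMIs are not spread over the length of a transcript. Rpl41, which encodes the smallest protein of the large subunit, was highest at 9674 CPM. The small subunit protein genes Rps2 (7690 CPM) and Rps23 (6610 CPM), the stalk gene Rplp1 (6956 CPM) and the large subunit gene Rpl32 (6367 CPM) followed. At the other end, Rpl7l1, an Rpl7-like gene, had 173 CPM, the pseudogene Rpl6l 158 CPM and the large subunit gene Rpl15 994 CPM. The tissue-restricted paralogs were near or at 0: 40 UMIs of Rpl39l, 2 of Rpl3l and 0 of Rpl10l among all kept cells. In all, 81 members reached 20 CPM, with a median of 3544 CPM.

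The summed share lay between 29.0% and 33.6% in the named classes other than erythroid-like cells, which stood lowest at 23.0%. It was 31.8% in optic vesicle-like, 30.7% in other forebrain-like, 31.2% in surface ectoderm-like, 30.6% in cranial crest mesenchyme-like, 29.0% in head mesoderm-like, 30.1% in endothelium-like and 33.6% in migratory crest-like cells. Over all kept cells the share was 27.6%, 28.8%, 33.1%, 33.4% and 30.2% in libraries 1 to 5. The class values above pool these libraries, over which the classes are spread unevenly. Head mesoderm-like cells had 26.0%, 28.1%, 31.6%, 33.5% and 27.7% in libraries 1 to 5. The other cells of each library had 27.7%, 28.8%, 33.1%, 33.4% and 30.2%. Migratory crest-like cells had 33.2%, 34.2% and 34.8% in libraries 3, 4 and 5, against 33.1%, 33.4% and 30.1% in the other cells. In the optic vesicle-like class the lowest value was 28.1% (library 1), the median 31.1% and the highest 33.9% (library 3). Cranial crest mesenchyme-like cells had 27.7% at the lowest (library 1) and 34.0% at the highest (library 4). The same libraries were the ends for endothelium-like cells, with 26.1% and 32.7%. Library 1 was lowest in each of the 6 named classes other than erythroid-like that had 10 cells there.

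**Figure D1:**
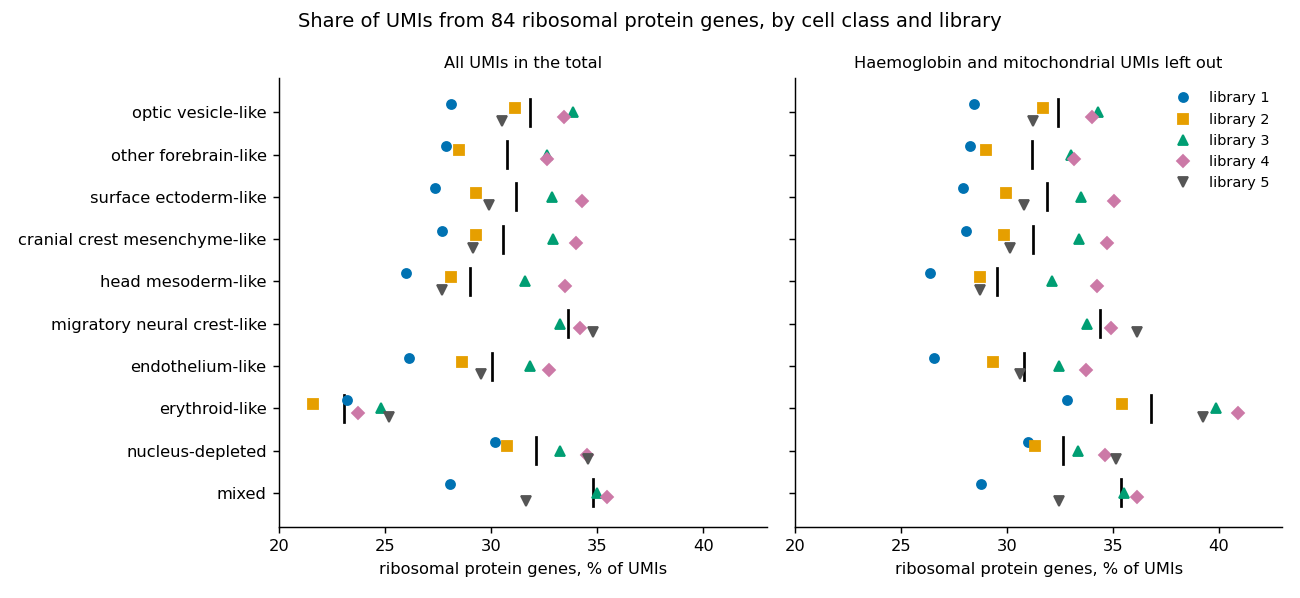
Percent of UMIs from the 84 ribosomal protein genes (x axis) in each class (rows), with all UMIs in the total (left) or without haemoglobin and mitochondrial UMIs (right). Points are libraries with at least 10 cells of the class and bars the class over all libraries. Erythroid-like cells stand lowest at 23.0% on the left and highest at 36.8% on the right.

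Optic vesicle-like cells had a share 1.05 times that of the mesenchyme (cranial crest and head mesoderm, 30.3%), with an interval of 1.051 to 1.053. The ratio in libraries 1 to 5 was 1.03, 1.07, 1.04, 0.986 and 1.05, so library 4 lay on the other side of 1. This difference is smaller than the range of the share over libraries in the optic vesicle-like class, 5.75 percentage points. Within a class and library, cells with more UMIs had a higher share. Spearman's rho between a cell's UMIs and its share lay between 0.157 and 0.629 in the 14 sets of at least 50 optic vesicle-like, other forebrain-like or crest mesenchyme-like cells. It is a description over cells of 1 library, and both values hold the same UMIs. The mixed cells, with a median of 56456 UMIs, had a share of 34.8%. The part of depth in the class and library differences was not tested.

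Members were then compared between each class and all other cells. The percents of all genes include the genes that formed the clusters, from which the members were left out. A contrast of members with all genes is thus partly built in. A gene was counted when its CPM differed at least 1.5-fold, the higher side had at least 20 CPM, the interval of the ratio left out 1 and every library with at least 10 cells on both sides had the same direction. In the optic vesicle-like class 0 of 81 members passed, where 3.07% of all tested genes were higher and 4.49% lower. None of the 81 members passed in other forebrain-like (all genes 3.73% higher, 4.42% lower), cranial crest mesenchyme-like (5.22% and 5.67%), head mesoderm-like (6.79% and 4.12%), surface ectoderm-like (8.61% and 3.5%), endothelium-like (20.5% and 15.5%) or migratory crest-like cells (4.55% and 6.33%) either. The widest member ratios in the optic vesicle-like class were 1.12 for Rpl35 and 0.909 for Rps26, and 75 of 81 members lay within 1.1-fold of the other cells.

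The members also spread less over the 7 classes other than erythroid-like than genes at large. Genes at large include those that formed the classes, and the members were left out there, so part of this contrast is built in. The highest class was a median of 1.19 times the lowest for the 81 members, 1.70 times for all 6576 genes that reached 20 CPM in a class, and 1.5 times for the 109 other genes that reached 1000 CPM. Under 1.3-fold were 70 of the 81 members and 29 of those 109 genes. The paralog Rpl22l1 was the steadiest, at 1.07-fold, followed by the small subunit genes Rps15 (1.09-fold) and Rps7 (1.1-fold). Widest were Rps29 at 1.52-fold (5909 CPM in migratory crest-like, 3885 in head mesoderm-like cells) and Rps26 at 1.5-fold. The libraries differ in how many cells of each class they hold, and within libraries 3, 4 and 5 the migratory crest-like level of Rps29 was 1.06, 1.11 and 1.24 times that of the other cells, and libraries 1 and 2 had under 10 such cells.

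Rps26, a small subunit protein near the mRNA exit channel, differed between classes in every library. It had 3570 CPM in cranial crest mesenchyme-like and 2383 CPM in endothelium-like cells. The crest mesenchyme-like level was 2955, 4276, 3254, 3731 and 3669 CPM in libraries 1 to 5, and the endothelium-like level 2216, 2761, 2167, 2409 and 2574 CPM. Endothelium-like cells were the lower class in each library, at 0.752 to 0.855 times the other cells of that library. The pseudogene Rps26-ps1, which shares 35.2% of the 60-base words of Rps26, had 78.4 CPM in all, 2.52% of the UMIs of the pair.

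Endothelium-like cells also differed in 2 large subunit genes. With libraries pooled both stayed under the 1.5-fold limit, at 1.20 times the other cells for Rpl28 and 0.766 times for Rpl7a. Rpl28 had 2595, 3079, 3555, 3905 and 3260 CPM in endothelium-like cells of libraries 1 to 5, against 2296, 2511, 2934, 3138 and 2700 CPM in the other cells. Endothelium-like cells were higher in all 5, by 1.13 to 1.24 times. Rpl7a had 1766, 1630, 2102, 2049 and 1239 CPM against 2224, 2110, 2833, 2521 and 1880 CPM. It was lower in all 5, at 0.659 to 0.813 times.

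Erythroid-like cells were the 1 named class in which members passed the size rule. All 81 member ratios were below 1 there, and 22 members were lower by the size rule, against 66.7% of all 5160 tested genes. The members' median log2 ratio was -0.47, beside -0.99 for all genes, and 0 members were higher, against 6.3% of all genes. Haemoglobin mRNA took 35.7% of the UMIs of these cells and 0.0261% in optic vesicle-like cells. With haemoglobin and mitochondrial UMIs left out of the totals the direction turned: the share was 36.8% in erythroid-like and 32.4% in optic vesicle-like cells. On that scale 67 of 81 members were above the other cells, with a median log2 ratio of 0.17 beside -0.28 for all genes. By the size rule 4 members were then higher, against 16.3% of all genes, and 0 were lower, against 37.5%. Those 4 were Rpl4 (1.56-fold), Rpl23a (1.56-fold), Rpl14 (1.55-fold) and the pseudogene Rpl6l (1.52-fold).

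The lowest member ratio on the CPM scale in erythroid-like cells was that of Rpl7l1, with 89.7 CPM against 176 CPM in the other cells (0.508-fold, 0.477 to 0.542). Its level was 130, 94.1, 67.6, 65.8 and 72 CPM in erythroid-like cells of libraries 1 to 5 and 240, 211, 160, 151 and 140 CPM in the other cells. The groups did not overlap. Such cases were not counted over all genes, and 66.7% of all tested genes were lower on this scale. Rps21, a small subunit gene, had 1171, 1211, 1535, 1489 and 1289 CPM against 1697, 2225, 2765, 3099 and 2320 CPM, and Rps29 had 2101, 2249, 3114, 3382 and 2968 CPM against 2915, 3980, 5417, 6306 and 4621 CPM. Erythroid-like cells were the lower in each library for both genes. Rpl4 showed the other pattern, with 3481, 2906, 3169, 2741 and 3127 CPM against 3223, 2741, 3310, 3079 and 2696 CPM, so that it was higher in libraries 1, 2 and 5 and lower in 3 and 4. Others of the 22 were Rps12, Rps28, Rps27, Rpl12, Rps26, Rpl29, Rpl41, Rpl37a, Rpl38, Rps27l, Rpl31, Rpl35a, Rpl39, Rpl15, Rps20, Rpl34, Rps19 and Rpl36, at 0.548- to 0.664-fold. With haemoglobin and mitochondrial UMIs left out, Rpl31, Rpl35a, Rpl39, Rpl15, Rps20, Rpl34, Rps19 and Rpl36 lay above 1, up to 1.04-fold for Rpl34. The other genes of that list stayed below 1, the lowest of them Rps28 at 0.859-fold. Rpl7l1, Rps21 and Rps29 stayed below 1 as well, at 0.797-, 0.816- and 0.848-fold. None of these genes passed in either direction on that scale. In CPM and without library 2, which holds 99 of the 253 erythroid-like cells, 14 members passed.

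The make-up of the module was then compared, with each member's UMIs divided by all member UMIs, which removes the summed share and the haemoglobin from the comparison. On this scale 0 of 81 members passed in any named class, including erythroid-like cells. Dividing by member UMIs centres the member ratios near 1, while every other gene carries the inverse shift of the module. The floor also changes, with 8676 genes tested in erythroid-like cells against 5160 in CPM. All genes are therefore no like background for the members, and their percents are given as description only. In erythroid-like cells 9.45% of all genes were higher and 51.5% lower on the same scale. For the optic vesicle-like class 3.54% of all genes were higher and 7.17% lower, for other forebrain-like cells 4.7% and 7.13%, and for crest mesenchyme-like cells 6.13% and 8.6%. The values were 8.75% and 5.4% for head mesoderm-like, 10.4% and 5.37% for surface ectoderm-like, 21% and 17.4% for endothelium-like and 4.34% and 12.2% for migratory crest-like cells. The SD of the log2 ratios over members was 0.05 in optic vesicle-like, 0.07 in other forebrain-like, 0.09 in crest mesenchyme-like and 0.11 in endothelium-like cells, and 0.23 in erythroid-like cells. Rpl4, which had 1.35 times the share in erythroid-like cells (1.34 to 1.37), and Rpl7l1, which had 0.691 times (0.648 to 0.737), marked the ends. The stalk genes parted there: Rplp0 had 1.22 times the share (1.21 to 1.23), while Rplp1 had 0.928 times (0.920 to 0.936) and Rplp2 0.933 times (0.923 to 0.943).

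**Figure D2:**
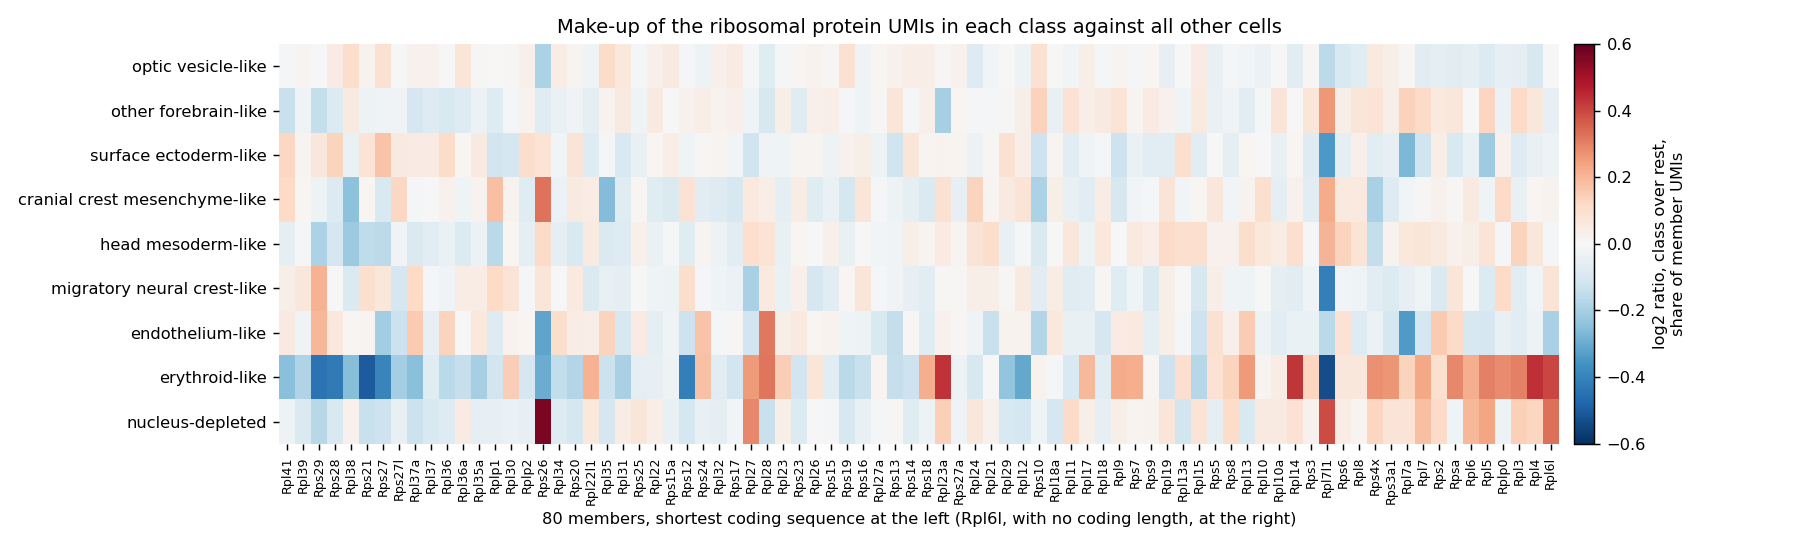
Log2 ratio of each member's share of member UMIs in a class over that in all other cells (colour), for 80 members ordered by coding length (x axis) and 8 named classes and the nucleus-depleted cells (rows). The erythroid-like row is coloured over the most members, and the strongest single value is Rps26 in nucleus-depleted cells (1.48 times).

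Coding length went with the erythroid-like pattern. Across the 80 members with a coding length and 20 CPM, Spearman's rho between coding length and the within-module log2 ratio was 0.65 in erythroid-like cells, and 0.54, 0.64, 0.61, 0.58 and 0.63 within libraries 1 to 5. It is a description across genes of the same cells, which share library and capture. With libraries pooled, rho was 0.64 for head mesoderm-like, 0.58 for other forebrain-like, 0.09 for crest mesenchyme-like and -0.24 for endothelium-like cells. It was -0.48 for optic vesicle-like, -0.47 for surface ectoderm-like, -0.33 for migratory crest-like and 0.54 for nucleus-depleted cells. For these classes rho was not taken within libraries. Library 1 itself went with coding length (below), and the classes are spread unevenly over libraries, so class and library were not separated there. The 11 members with a coding sequence under 300 bases gave 10.5% of member UMIs in erythroid-like and 12.8% in optic vesicle-like cells. By library the erythroid-like share of these short members was 9.70%, 10.5%, 10.2%, 11.3% and 10.7%, and the optic vesicle-like share 10.7%, 13.0%, 12.3%, 13.7% and 13.0%. Erythroid-like cells were lower in each library, and library 1 was lowest in both classes.

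**Figure D3:**
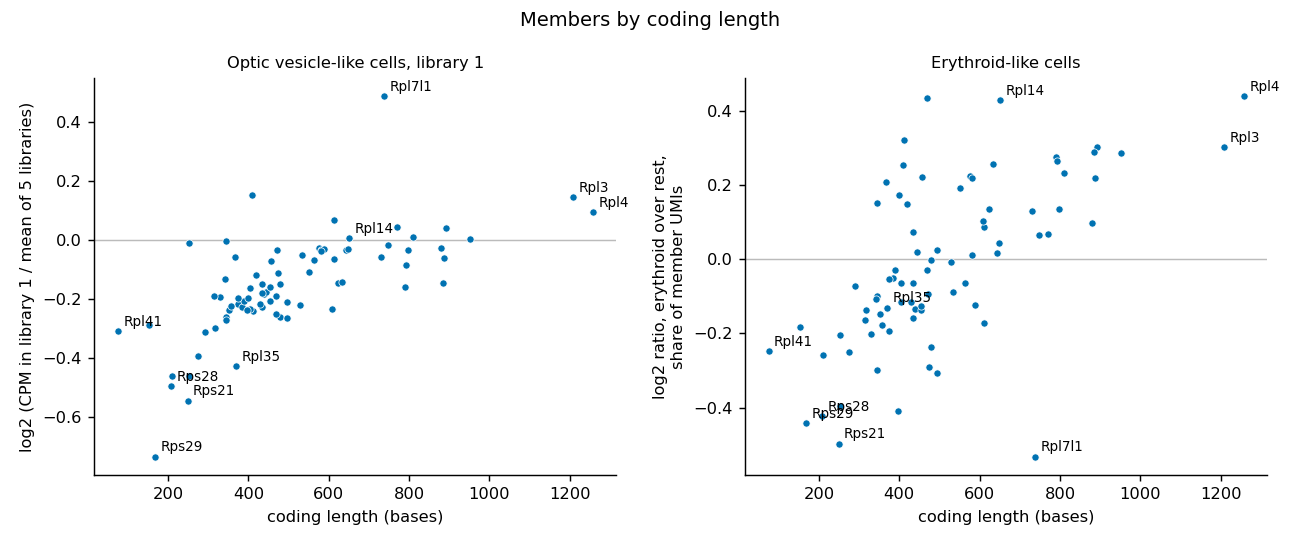
Each point is a member placed by coding length in bases (x axis). Left, log2 of CPM in library 1 over the mean of 5 libraries in optic vesicle-like cells. Right, log2 ratio of the share of member UMIs in erythroid-like over other cells. Rps29 and Rps21 lie low in both panels, and Rpl7l1 is highest on the left and lowest on the right.

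Between libraries, 9 of 81 members ranged at least 1.5-fold in optic vesicle-like cells with intervals of the highest and lowest library that did not overlap, against 55.6% of all 5683 tested genes. The median range was 1.26-fold for the members and 1.55-fold for all genes. In crest mesenchyme-like cells 12 of 81 members passed, against 66.2% of all genes, and in endothelium-like cells 14 of 81, against 55.9%. The 9 members of the optic vesicle-like class, Rps29, Rpl35, Rps21, Rpl7l1, Rps28, Rpl38, Rps27, Rpl5 and Rpl7a, were all among those of the other 2 classes (75% and 64.3% of the lists there). The overlap of such lists over all genes was not counted, and the same 5 libraries supply all 3 ranges. Of the 9 members, 8 were in the promoter table and 3 held the searched letters. The ranges of the optic vesicle-like and crest mesenchyme-like classes compare different clusters between libraries, so that library and cluster cannot be told apart there, while the endothelium-like class is 1 cluster. Library 1 held only 86 optic vesicle-like cells, and without it 3 members (Rpl35, Rpl5 and Rpl7a) passed.

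Rps29, a zinc-binding small subunit protein, had the widest range. It had 2757, 4110, 5536, 6063 and 4470 CPM in optic vesicle-like cells of libraries 1 to 5, 2940, 4050, 5224, 6078 and 4686 CPM in crest mesenchyme-like and 3008, 4528, 5797, 6694 and 5694 CPM in endothelium-like cells. Library 1 was lowest and library 4 highest in all 3 classes, by 2.20, 2.07 and 2.23 times. Rps21 had 1672, 2349, 2810, 3049 and 2320 CPM and Rps28, a small subunit protein, 1987, 2895, 2923, 3420 and 2792 CPM in optic vesicle-like cells. Library 1 was lowest and library 4 highest for both.

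Rpl35, a large subunit protein at the peptide exit tunnel, had another pattern. Its level in optic vesicle-like cells was 1801, 2135, 3382, 2351 and 2458 CPM, and in crest mesenchyme-like cells 1599, 1618, 2865, 2106 and 2058 CPM. Library 3 stood above the other 4 in both. Rpl7l1 was highest in library 1, with 256, 207, 155, 157 and 141 CPM in optic vesicle-like cells. Rpl5, which binds the 5S ribosomal RNA and MDM2, had 1869, 1610, 2167, 2039 and 1402 CPM, and Rpl7a 2395, 2226, 2997, 2654 and 1998 CPM. Both were lowest in library 5 and highest in library 3. At the steady end, Rps7 had 3438, 3446, 3743, 3553 and 3475 CPM, a range of 1.09-fold.

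**Figure D4:**
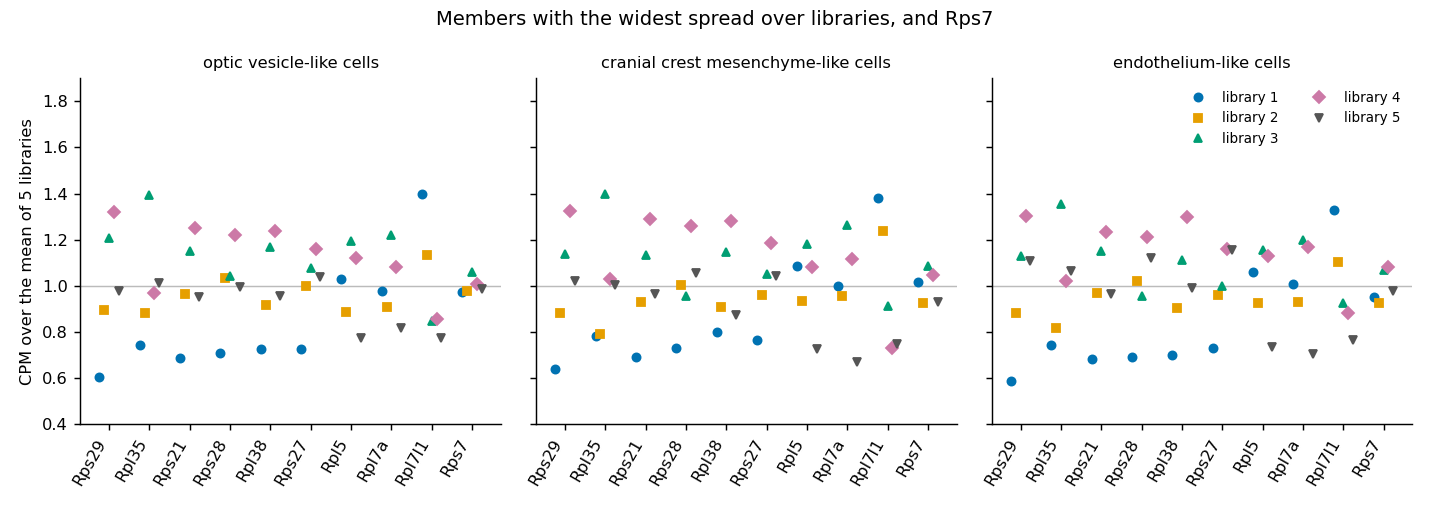
CPM of 10 members in each library over the mean of the 5 libraries (y axis), in 3 classes. Points are libraries. Rps29 is lowest in library 1 and highest in library 4 in each class, Rpl35 is highest in library 3, and Rps7 stays near 1.

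Coding length also went with library 1. In optic vesicle-like cells Spearman's rho between coding length and the log2 of the level in library 1 over the mean of libraries was 0.71 across 80 members. The value was 0.76 in crest mesenchyme-like and 0.77 in endothelium-like cells. For the other libraries rho lay between -0.53 and 0.18 over the 3 classes. These are descriptions, and the libraries' values for a gene share that mean. The part of library preparation in these differences was not tested, and stage, embryo and library cannot be told apart.

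Some members have near-identical copies, and reads of a gene and its copy may be counted for either. Of the 84 members, 25 shared at least 20% of their 60-base words with another gene in the table, up to 98.6% for Rps27 and Rps27rt. A partner is named by shared words alone, so it need not be a copy of the member. Rpl6 and its pseudogene Rpl6l are each other's partner, the partner of Rpl13a is Flt3l and that of Rplp2 is Wdr89. Of the 19 partners with at least 20 CPM, 12 ranged at least 1.5-fold over libraries in all kept cells, where 42.8% of all 4887 genes at that level did. Of these 12, 4 were highest and 6 lowest in library 3, beside 4.02% and 27.4% of the genes with such a range. Rps27rt had 181, 231, 93.3, 161 and 196 CPM in libraries 1 to 5 and was lowest in library 3, where Rps27 had 3424 CPM. Gm10073, a copy of the stalk gene Rplp1, had 170, 210, 443, 248 and 258 CPM and was highest there.

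The clearest case was Rpl41 (chr10:128548114-128549305, minus strand) and Gm10076 (chr14:105681828-105682211, plus strand), annotated as a lincRNA. The sequences are from the GENCODE transcripts of GRCm38. The coding sequence of Rpl41 with its stop codon is 78 bases long, shown with the start codon in capitals, and stands unchanged in Gm10076. Aligned without a gap over 384 bases, the transcripts differed at 3 bases, C-41G, C86T and G193A, counted from the A of the start codon with the Rpl41 base first. C86T lies just after the stop codon and is in capitals in the windows of positions 60 to 89.
Rpl41 coding sequence: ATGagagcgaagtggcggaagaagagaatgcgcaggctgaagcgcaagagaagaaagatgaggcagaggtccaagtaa
Rpl41, positions 60 to 89: gaggcagaggtccaagtaagccagccCgtg
Gm10076, positions 60 to 89: gaggcagaggtccaagtaagccagccTgtg

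Gm10076 had 300.3, 297, 1057, 635 and 424 CPM in libraries 1 to 5, while Rpl41 had 7918, 10247, 8562, 11171 and 10796 CPM. Library 3 was highest for the copy and second lowest for Rpl41. The copy's share of the pair's UMIs was 3.65%, 2.82%, 11%, 5.38% and 3.78%. It hardly differed between classes of a library: 3.59% to 3.67% over 7 classes in library 1, 2.70% to 2.90% over 7 in library 2, 10.1% to 11.2% over 8 in library 3, 5.09% to 5.48% over 8 in library 4 and 3.65% to 4.2% over 7 in library 5. The ranges of libraries 1 and 5 overlapped, and the others were apart. In erythroid-like cells Rpl41 had 5586, 5905, 5402, 6493 and 7465 CPM, and the copy's share was 3.62%, 2.74%, 10.1%, 5.48% and 3.95%. Those cells were the lowest class of library 3 and the highest of library 4. The sum of both genes was 8219, 10544, 9619, 11806 and 11220 CPM, lowest in library 1 and, as for Rpl41 alone, second lowest in library 3.

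**Figure D5:**
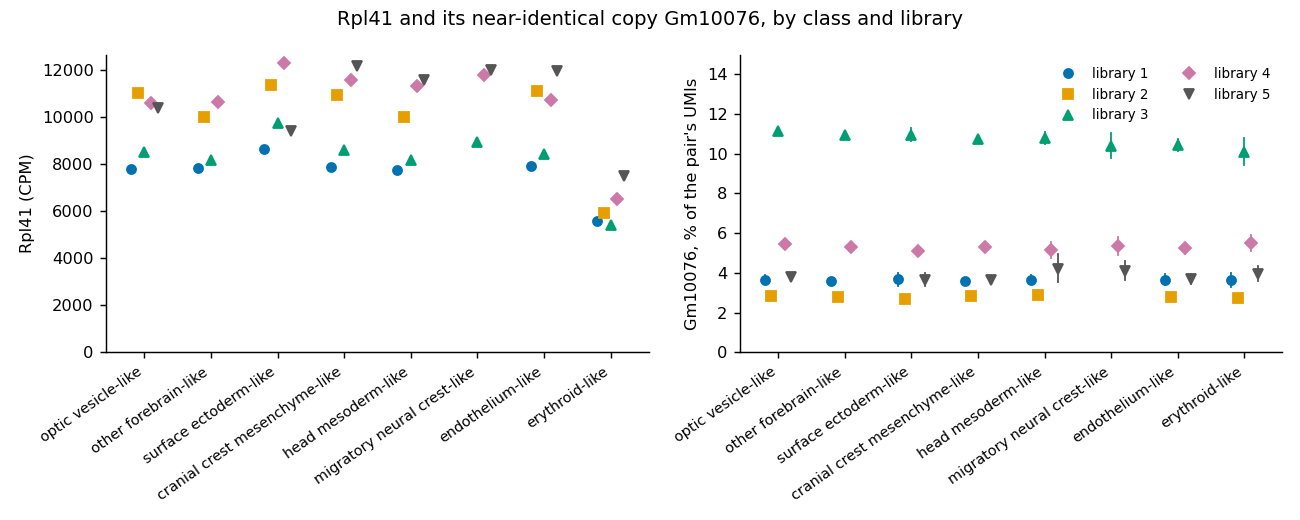
Left, Rpl41 in CPM (y axis) by class, 1 point a library. Right, UMIs of the copy Gm10076 as percent of the UMIs of both genes, with exact 95% intervals. Library 3 lies at 10.1% to 11.2% in every class shown, and library 2 at 2.70% to 2.90%.

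Genes of the same ribosome outside the symbol rule were Fau and Gnb2l1. Fau, which encodes a small subunit protein fused to a ubiquitin-like part, had 2511, 2488, 2927, 2987 and 2641 CPM in libraries 1 to 5. It ranged 1.20-fold, lowest in library 2 and highest in library 4. Gnb2l1, the small subunit scaffold RACK1, had 1961, 1764, 2028, 1918 and 1439 CPM and ranged 1.41-fold, lowest in library 5.

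Paralogs were compared with their parent genes as the paralog's share of the UMIs of both. Rpl22l1 gave 52.1% of the Rpl22 pair, with 1905 CPM beside 1754 CPM for Rpl22. Its share was 51.3% in optic vesicle-like, 50.6% in other forebrain-like, 53.7% in crest mesenchyme-like, 53.6% in endothelium-like and 56.3% in erythroid-like cells. By library it was 55.4%, 55.0%, 50.5%, 48.7% and 52.9%, so the range over libraries was as wide as that over classes. Rpl22 moved more, from 1520 CPM in library 1 to 1962 in library 4, than Rpl22l1, which had 1860 to 1946 CPM.

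Rps27l, a paralog known as a p53 target, gave 28.6% of its pair with Rps27. Its share was 27.7% in optic vesicle-like, 31.2% in crest mesenchyme-like and 31.3% in erythroid-like cells, and 34.4%, 31.2%, 28.1%, 24.8% and 27.5% in libraries 1 to 5. Rps27l itself had 1268, 1345, 1341, 1258 and 1282 CPM, within 1.07-fold. Rpl7l1 gave 5.12% of its pair with Rpl7, from 3.13% in erythroid-like to 5.74% in crest mesenchyme-like cells, and Rpl36al gave 29.1% of its pair with Rpl36a, from 27.0% in migratory crest-like to 37.2% in erythroid-like cells. Rpl36al had 1132 CPM in erythroid-like and 1136 CPM in optic vesicle-like cells, whereas Rpl36a had 1912 and 3004 CPM. Of the 40 UMIs of Rpl39l, 14 were in endothelium-like cells (1.08 CPM) and 4 in optic vesicle-like cells (0.0592 CPM), too few to read a pattern. Rpl10l had 0 UMIs of 254168062, and the exact interval of its share of the pair with Rpl10 reached up to 0.000423%.

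Nucleus-depleted cells, with 327 CPM of Malat1 (the basis of their name) and a median of 13498 UMIs, had a ribosomal protein share of 32.1%, 1.04 times that of the other cells (1.037 to 1.039). The ratio was 1.11, 1.07, 1.01, 1.03 and 1.15 in libraries 1 to 5. Of 81 members 1 was higher by the size rule, against 0.578% of all genes, and 0 were lower, against 13.8%. It was Rps26, with 3456, 4881, 4645, 5570 and 5321 CPM in nucleus-depleted cells of libraries 1 to 5 and 2721, 3454, 2694, 3053 and 2914 CPM in the other cells. The nucleus-depleted cells were higher in every library, by 1.27 to 1.83 times and by 1.53 times in all (1.52 to 1.55). Within the module Rps26 had 1.48 times the share (1.46 to 1.49), below the limit, and 0 of 81 members passed. On that scale 0.155% of all genes were higher and 24.5% lower, which is no like background for the members, as above.

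Lists of related genes did not follow the ribosomal protein genes in every class. In crest mesenchyme-like cells the 23 tested ribosome biogenesis genes, which make and modify ribosomal RNA and assemble subunits, had a median log2 ratio of 0.26 and 0 of them passed in either direction. The members' median there was -0.02 and that of all genes 0.10. In surface ectoderm-like cells the biogenesis genes had a median of -0.28, with 2 above and 21 below 0, beside 0.00 for the members and 0.03 for all genes. In optic vesicle-like cells the medians were -0.11 for biogenesis genes, 0.06 for members, 0.03 for all genes, -0.01 for the 25 other 5′TOP genes and -0.01 for the 76 tested mitochondrial ribosomal protein genes.

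Among the MYC and mTOR regulators, only Mycl and Mycn passed in other forebrain-like cells, beside 3.73% of all genes higher and 4.42% lower. Mycl had 26.8 CPM against 12.8 CPM (2.09-fold) and Mycn 93.4 against 54.6 CPM (1.71-fold). The members' median log2 ratio in that class was -0.01, with 0 of 81 passing, and a link between these regulators and the members was not tested. In erythroid-like cells 10 of the 25 other 5′TOP genes were lower, beside 66.7% of all genes, among them Vim (2.94 CPM against 209 CPM), Hnrnpa1 (0.254-fold) and Nap1l1 (0.353-fold), with a median log2 ratio of -0.48 beside -0.47 for the members. Of the 76 mitochondrial ribosomal protein genes 26 were lower there (median -0.35), as were 6 of 23 biogenesis genes (median -0.27), and none of either list was higher. Both counts are below the 66.7% of all genes that were lower there. Mycn, a transcription factor of growing progenitors, had 1.56 CPM in erythroid-like and 65.3 CPM in other cells, and Myc 31.7 and 13.7 CPM. The intermediate filament gene Vim, on the same list of 5′TOP genes, had 1297 CPM in endothelium-like and 141 CPM in the other cells (9.19-fold), while Nap1l1 and Hnrnpa1 were lower there (0.561- and 0.624-fold). Of the 6 p53 targets tested in crest mesenchyme-like cells, 1 was higher (Phlda3, 2.04-fold) and 1 lower (Bbc3, 0.581-fold), and the other 4 did not pass, beside 5.22% of all genes higher and 5.67% lower. Neither was particular to that class. Phlda3 was also higher in endothelium-like (2.91-fold), migratory crest-like (1.54-fold) and head mesoderm-like cells (1.52-fold). Bbc3 was also lower in head mesoderm-like (0.393-fold), endothelium-like (0.622-fold) and erythroid-like cells (0.155-fold).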

How the data were processed

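Single cells were sequenced in droplets. The deposited matrix, 1 for all libraries, gives raw UMI counts by gene and barcode. The submitters' processing notes name Cell Ranger and mm10 (GRCm38) without versions. A barcode needed 1000 detected genes and no more than 10% of UMIs from mitochondrial genes, and 22 failed. Scrublet (scanpy 1.11.5, expected rate 6%), run per library, removed 66 more (0.808%, and 0.403% to 1.46% by library). Cells were scaled to 10000 UMIs, log-transformed, and clustered on 2000 variable genes, 30 components and 15 neighbours with Leiden at resolution 1, leaving out all Rps and Rpl genes, the other lists, and mitochondrial, haemoglobin and sex-linked genes. Neuroepithelial and ectodermal clusters were clustered again. Copies outside those name patterns, such as Gm10076, stayed in. A name needed 3 markers or more (5 for optic vesicle), each with 10 UMIs and 2 times the CPM of other clusters, 5 CPM added to both. Clusters under 25% of the median cluster's Malat1 were set apart. The scoring of markers, the second clustering and the joining of forebrain clusters were chosen with the data in view.

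UMIs were summed by class and library. A difference needed 1.5-fold, 20 CPM on the higher side, an exact 95% Poisson ratio interval without 1, and the same direction in each of at least 2 libraries with 10 cells on both sides. Classes needed 50 cells, and so did each library in a library range. Shares carry Clopper-Pearson intervals. UMIs remove amplification copies, but intervals cover counting error only. Named genes were the 20 passing members with the largest ratio (Rps19 and Rpl34 complete the erythroid-like list), the 5 highest and lowest members, all paralogs, and up to 3 passing genes of each other list with the largest ratio. Members whose values are given although they did not pass were chosen after their values were seen. The members and all lists were chosen with earlier results of these data known. A member that passed in erythroid-like cells is counted but not reported here by name. The size rule was tested on simulated data. Alternatives covered doublets, resolution, weighting, denominators, limits and each library left out.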

Additional observations from a re-analysis of the deposited data

How the results depend on the processing

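The share over all kept cells stayed between 30.2% and 32.1% under its 9 alternatives, and the optic vesicle to mesenchyme ratio between 1.03 and 1.07 under its 10. The count of 22 members lower in erythroid-like cells became 14 with libraries weighted equally, 14 without library 2 and 0 at a 2-fold limit. It reversed to 4 higher members with haemoglobin and mitochondrial UMIs left out, a change built into that total. The other alternatives gave 20 to 30 lower members, including 28 when the nucleus-depleted and mixed clusters and library 1 were left out together, an alternative chosen after seeing the data. Within the module, the count of 0 became 1 with libraries weighted equally and stayed 0 otherwise. The 9 members with a wide range over libraries in optic vesicle-like cells became 3 without library 1, 3 with doublets kept and 3 at resolution 2. In the last 2 settings library 1 held 11 and 8 optic vesicle-like cells and dropped out. A 2-fold limit left 1, Rps29, and shares of member UMIs in place of CPM, added after seeing the data, gave 5. The cause of the other changes was not tested. No paired analysis was possible because each stage had 1 sample and the libraries carry no stage. Copies with few differing bases limit what a single member's count means.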
